A study of Mus musculus with 33 samples.

Results

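The genes that carry hepatic glucose output and glycogen storage were followed through livers and liver tumours with activated MYC, with mutant β-catenin, or with both. There were 10 of them, Pck1, G6pc, Fbp1, Pcx, Slc2a2, Slc37a4, Ppargc1a, Gys2, Pygl and Gcgr, taken by their symbols from a table of 21671 genes, and each symbol was found once. All 10 passed the filter on low values in every comparison.

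Gluconeogenesis builds glucose from lactate, amino acids and glycerol, and the liver uses it to hold blood glucose during fasting. Pyruvate carboxylase (Pcx) makes oxaloacetate, phosphoenolpyruvate carboxykinase (Pck1) turns it into phosphoenolpyruvate, and fructose bisphosphatase (Fbp1) removes a phosphate further up the route. Glucose-6-phosphatase (G6pc) frees glucose inside the endoplasmic reticulum, where the carrier Slc37a4 brings its substrate, and Slc2a2 (GLUT2) passes glucose across the hepatocyte membrane. Glycogen is built by the liver glycogen synthase Gys2 and broken down by the liver phosphorylase Pygl. Glucagon acts through its receptor Gcgr to raise cyclic AMP, and the coactivator Ppargc1a (PGC-1α) is part of the fasting response of the gluconeogenic genes. Insulin and glucagon act on the gluconeogenic enzymes in large part through transcription, and on glycogen synthase and phosphorylase mainly through phosphorylation.

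RNA from 33 samples of C57BL/6 mice was sequenced. In the day 4 arm, mice 6 to 8 weeks old received AAV8-TBG-CRE intravenously, a virus whose TBG promoter confines Cre to hepatocytes, and were killed on day 4. Its 4 groups of 5 livers were wild type (WT), β-catenin Ex3 (Ex3, an allele whose exon 3 Cre removes, which stabilises the protein), R26-lslMYC (MYC, a MYC transgene at Rosa26 behind a stop cassette) and both alleles together (MYC+Ex3). All 20, wild type included, carried the virus. In the tumour arm, 3 nodules came from Alb-CreERT2/R26-lslMYC mice and 3 from mice with the β-catenin Ex3 allele as well, with no treatment, time or age recorded for any of the 6. Their reference was 7 wild-type livers taken 4 days after intraperitoneal 4-hydroxytamoxifen (4-OHT). The labels do not say whether those 7 mice carried Alb-CreERT2, a Cre that the albumin promoter drives and tamoxifen activates. Tumour and reference thus differ in genotype, in the time since activation and in tissue, and these cannot be told apart. Nothing in the labels names separate cultures or litters, and the p-values measure the spread between these samples only.

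Levels are given as RPKM (reads scaled to gene length and library total), as the authors deposited them. The day 4 libraries held 3.75 to 7.31 M reads in genes and the tumour arm 6.65 to 9.82 M, and RPKM of the 2 arms are on different scales, so levels were compared within an arm. Changes are differences of log2(RPKM + 1) from limma with a standard error (SE), and a gene was called changed at a Benjamini-Hochberg adjusted p under 0.05 over all genes tested. Axin2, a gene that β-catenin activates, rose from 3.32 ± 0.609 RPKM (SD, n = 5) in wild type to 18.4 ± 5.37 in Ex3 livers and 16.6 ± 7.46 in MYC+Ex3 livers. In the tumour arm it stood at 9.89 ± 1.99 RPKM in MYC+Ex3 tumours (n = 3), 0.362 ± 0.284 in MYC tumours (n = 3) and 1.38 ± 0.394 in 4-OHT livers (n = 7). The Myc row was called in no comparison, and the table does not show whether it counts reads of the transgene. Of the 20 day 4 libraries 10 held RNA of the skin keratins Krt5, Krt14 and Krt17 at 3.95 to 23.78 RPKM in sum, against 0 to 0.4 in the other 10. These keratin-bearing libraries numbered 3 among the wild-type livers, 3 among Ex3, 1 among MYC and 3 among MYC+Ex3, and results below are given also from the keratin-free or keratin-bearing libraries alone, or with the keratin state as a covariate, where these changed a call. By the RNA of Xist and Ddx3y, since no label gives the sex, the day 4 groups held 2 (wild type), 3 (Ex3), 3 (MYC) and 4 (MYC+Ex3) males. Among the 4-OHT livers 4 were male, as were all 3 MYC tumours and 2 MYC+Ex3 tumours. MYC liver 5, counted as female, held both Xist (86.1 RPKM) and Ddx3y (4.74 RPKM), and no call of the 10 genes changed without it.

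The 250 bases before the start site are shown for 4 genes whose levels changed in these data, Pck1, G6pc and Fbp1, which fell, and Ppargc1a, which rose in tumours. They come from RefSeq on the GRCm38.p6 build, at chr2:173152823-173153072 (plus strand) for Pck1, chr11:101367466-101367715 (plus) for G6pc, chr13:62888283-62888532 (minus) for Fbp1 and chr5:51567726-51567975 (minus) for Ppargc1a. Each is written 5′ to 3′ along its gene, and capitals mark the motifs found on either strand.
Pck1: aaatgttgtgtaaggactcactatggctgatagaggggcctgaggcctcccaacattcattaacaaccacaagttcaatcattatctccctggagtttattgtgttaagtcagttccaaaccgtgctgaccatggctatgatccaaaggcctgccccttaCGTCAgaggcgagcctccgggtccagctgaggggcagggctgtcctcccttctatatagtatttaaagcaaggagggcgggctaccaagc
G6pc: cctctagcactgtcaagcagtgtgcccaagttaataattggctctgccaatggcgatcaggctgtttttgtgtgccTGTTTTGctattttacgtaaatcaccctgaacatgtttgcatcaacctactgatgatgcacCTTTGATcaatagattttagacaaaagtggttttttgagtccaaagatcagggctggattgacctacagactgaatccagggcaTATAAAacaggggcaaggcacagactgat
Fbp1: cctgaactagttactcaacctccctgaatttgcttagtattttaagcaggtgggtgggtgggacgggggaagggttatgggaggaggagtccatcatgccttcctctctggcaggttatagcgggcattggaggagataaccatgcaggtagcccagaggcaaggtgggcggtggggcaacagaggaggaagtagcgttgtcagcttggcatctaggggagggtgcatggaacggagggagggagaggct
Ppargc1a: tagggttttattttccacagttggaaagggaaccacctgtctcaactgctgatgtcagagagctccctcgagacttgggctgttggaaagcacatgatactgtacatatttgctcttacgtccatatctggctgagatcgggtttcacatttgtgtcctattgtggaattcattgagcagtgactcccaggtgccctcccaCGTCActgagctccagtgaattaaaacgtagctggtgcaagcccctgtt

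The motifs searched were the cyclic AMP response element core TGACG, the forkhead core TGTTTAC, the insulin response core TGTTTTG, the E-box CACGTG, the TCF core ATCAAAG and the TATA box TATAAA, each on both strands. No 2 marked motifs overlap in these 4 sequences. The Pck1 promoter held TGACG on the opposite strand at -90, and the Ppargc1a promoter held it on the opposite strand at -49. The G6pc promoter held TGTTTTG at -174, ATCAAAG on the opposite strand at -113 and TATAAA at -29. None of the 6 motifs stood in the Fbp1 window. Of the 10 genes 9 had a promoter entry, with 12 start sites between them, and 4 genes held TGACG (Pck1, Slc37a4, Ppargc1a and Pygl). Among 32851 mouse promoters of the same length TGACG stood in 17.8%, TGTTTTG in 5.56%, ATCAAAG in 3.21%, TATAAA in 12.4%, CACGTG in 6.02% and TGTTTAC in 3.17%. A match in these letters is a description and shows no binding.

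The first comparison asked whether mutant β-catenin alone moved these genes within 4 days. None of the 10 was called between Ex3 and wild-type livers by limma, and none had an unadjusted p under 0.05, beside 0.132% of 13688 genes called in either direction. The authors' deposited table likewise has no member under an adjusted p of 0.05. Pck1 stood at 226.1 ± 32.3 RPKM in Ex3 livers and at 199.8 ± 38.4 in wild type (n = 5 each), with a 95% interval of the difference from -0.33 to 0.72. G6pc stood at 184.2 ± 35.4 RPKM in Ex3 livers and 181.3 ± 21.7 in wild type, with an interval from -0.40 to 0.42. The narrowest interval was that of Pcx, from -0.12 to 0.17, and the widest that of Ppargc1a, from -0.61 to 0.82.

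With MYC active, the means of all 10 genes stood below those of wild-type livers on day 4. They ran from 63.4% (Pck1) to 96.1% (Slc37a4) of wild type in MYC livers and from 62.8% (Pck1) to 88.8% (Gys2) in MYC+Ex3 livers. The share of all genes with lower means was not counted. Calls were limited to Pck1, G6pc, Fbp1 and Pcx. Between MYC and wild-type livers 1 of the 10 genes fell (Pck1) and none rose, beside 5.36% of all genes called lower and 16.9% called higher. Between MYC+Ex3 and wild-type livers 3 fell (G6pc, Fbp1 and Pcx) and none rose, beside 6.18% lower and 17.9% higher. Between MYC+Ex3 and Ex3 livers 3 fell (Pck1, G6pc and Pcx) and none rose, beside 4.7% lower and 16.4% higher. The median change of the 10 genes was -0.27, -0.23 and -0.31 in these 3 comparisons, against 0.07, 0.05 and 0.03 over all genes tested. Over 10 mature hepatocyte markers it was -0.20, -0.18 and -0.22, so a lower median was not particular to these genes. After rescaling each library to its median ratio, the shares of all genes called lower were 9.53%, 9.52% and 7.0%, and called higher 13.8%, 15% and 14.2%. The 3 comparisons share livers with each other and are not separate evidence.

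**Figure D1:**
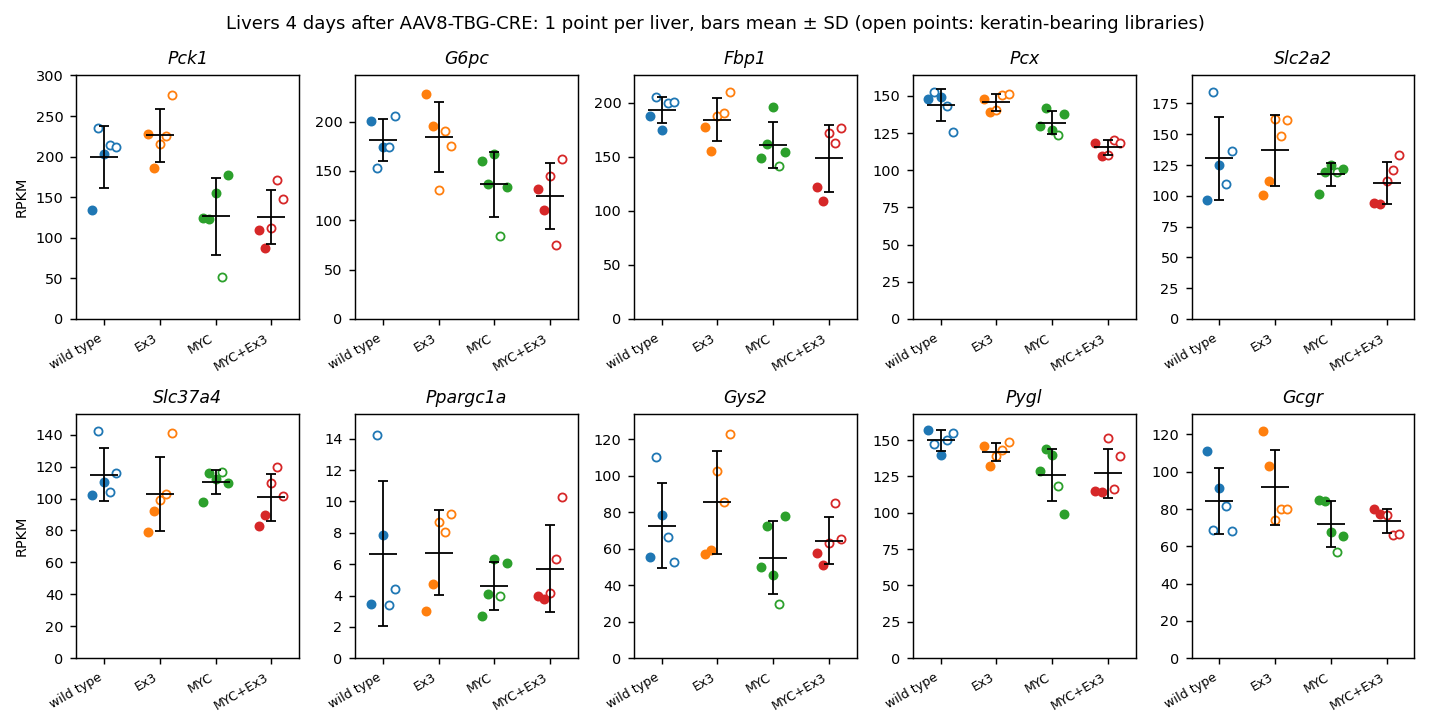
RPKM of the 10 genes (y axis, from 0) in the 20 day 4 livers by genotype (x axis), 1 point per liver, with mean ± SD (n = 5 per group) and open points for keratin-bearing libraries. The 5 MYC+Ex3 livers lie between 109.6 and 120.0 RPKM for Pcx, below every wild-type and Ex3 liver, and 1 MYC liver lies at 51.85 for Pck1.

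Pck1, the enzyme often taken as the transcriptional control point of the route, stood at 134.4, 235.6, 203.4, 214.1 and 211.3 RPKM in the wild-type livers. The 5 MYC livers held 124.0, 123.6, 155.7, 51.85 and 177.6 RPKM, and the MYC+Ex3 livers 109.1, 86.87, 112.4, 171.0 and 147.4. The Ex3 livers held 228.1, 186.0, 215.0, 225.8 and 275.6. Both MYC genotypes overlapped wild type, through the wild-type liver at 134.4, while every MYC+Ex3 liver lay below every Ex3 liver. In MYC livers the mean was 63.4% of wild type, a change of -0.74 ± 0.251 (SE), adjusted p = 0.0394 by limma. In MYC+Ex3 livers the change from wild type was -0.68 ± 0.251 with an adjusted p of 0.0534, which missed the threshold, and from Ex3 livers it was -0.87 ± 0.251, adjusted p = 0.0167.

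The Pck1 call in MYC livers rested on few libraries. It was lost in fits without wild-type liver 2, 3, 4 or 5 or MYC liver 1, 2 or 4, with adjusted p from 0.0525 to 0.109, and without MYC liver 4, the one at 51.85 RPKM and the only keratin-bearing MYC library, the change was -0.45. Among keratin-free libraries alone Pck1 stood at 123.6 to 177.6 RPKM in 4 MYC livers and at 134.4 and 203.4 in 2 wild-type livers, a change of -0.20 with adjusted p = 0.587. With the keratin state as a covariate the MYC change was -0.72 and missed the threshold (adjusted p = 0.0549). The MYC+Ex3 change from wild type passed the threshold among keratin-free libraries (-0.76, adjusted p = 0.0415) and among keratin-bearing ones (-0.63, adjusted p = 0.022). It passed also in a fit of these 2 groups alone (adjusted p = 0.024) and without wild-type liver 1 (-0.82, adjusted p = 0.0266), MYC+Ex3 liver 4 (-0.80) or MYC+Ex3 liver 5 (-0.75). The fall from Ex3 livers was lost without MYC+Ex3 liver 2 (-0.75, adjusted p = 0.0571). In the authors' deposited table Pck1 was lower in both MYC genotypes than in wild type, by -0.72 (adjusted p = 0.0256) and -0.73 (adjusted p = 0.00304).

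G6pc, which catalyses the last step to free glucose, held 200.1, 152.8, 173.9, 173.7 and 206.0 RPKM in wild-type livers and 131.3, 110.0, 144.6, 75.32 and 161.7 in MYC+Ex3 livers. The groups overlapped in 1 MYC+Ex3 liver, at 161.7. The mean fell from 181.3 ± 21.7 to 124.6 ± 33.4 RPKM, a change of -0.58 ± 0.197 (SE), adjusted p = 0.0392 by limma. Against the Ex3 livers, at 228.2, 195.7, 131.1, 190.8 and 175.4 RPKM, the change was -0.58 with adjusted p = 0.0398. The MYC livers held 160.3, 137.0, 166.7, 83.55 and 133.9 RPKM, and their change from wild type of -0.44 ± 0.197 was not called (adjusted p = 0.117). With the keratin state as a covariate it was called (-0.55, adjusted p = 0.0421), as it was in the authors' deposited table (-0.49, adjusted p = 0.026).

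Both G6pc calls in MYC+Ex3 livers were near the threshold. The fall from wild type was lost without wild-type liver 1, 3, 4 or 5 or MYC+Ex3 liver 1, 2 or 4 (adjusted p from 0.0542 to 0.117, and -0.41 without MYC+Ex3 liver 4, at 75.32 RPKM). The fall from Ex3 livers was lost without Ex3 liver 1, 2, 4 or 5 or MYC+Ex3 liver 1, 2 or 4 (adjusted p from 0.0565 to 0.122), and among keratin-bearing libraries neither was called (adjusted p = 0.199 and 0.337).

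Fbp1 held 187.7, 205.2, 175.2, 199.6 and 200.4 RPKM in wild-type livers and 121.7, 108.9, 172.3, 163.3 and 176.9 in MYC+Ex3 livers, so that only the MYC+Ex3 liver at 176.9 reached the wild-type range. The mean fell from 193.6 ± 12.1 to 148.6 ± 31.1 RPKM, a change of -0.40 ± 0.127 (SE), adjusted p = 0.0248 by limma. The 5 MYC+Ex3 livers split by keratin: the 2 keratin-free ones averaged 115.3 RPKM and the 3 keratin-bearing ones 170.8. The keratin-free ones were also the deeper libraries, at 6.57 and 7.31 M reads in genes against 3.75, 5.10 and 4.81 M. Their Fbp1 reads, 1146 and 1142, were near the 926, 1193 and 1221 of the keratin-bearing ones. Keratin and depth were not told apart here. Among keratin-bearing libraries alone the change was -0.24 (adjusted p = 0.0646). The call was lost without wild-type liver 2 or 5 or MYC+Ex3 liver 1 or 2 (adjusted p from 0.0526 to 0.0858, and -0.30 without MYC+Ex3 liver 2). From Ex3 livers, at 155.5 to 210.4 RPKM, the change of -0.33 was not called (adjusted p = 0.0697). It was called with the keratin state as a covariate (adjusted p = 0.0304) and among keratin-free libraries (-0.53, adjusted p = 0.0318). Without Ex3 liver 2 (-0.39) or MYC+Ex3 liver 3 (-0.39) or 5 (-0.40) it was called as well. In MYC livers the Fbp1 change from wild type of -0.27 was not called by limma (adjusted p = 0.126). The authors' deposited table called that change (-0.37, adjusted p = 0.0383).

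Pcx is the mitochondrial entry enzyme. The wild-type livers held 147.7, 152.3, 149.4, 143.1 and 125.5 RPKM, the Ex3 livers 147.9, 138.8, 140.5, 150.4 and 151.2, and the MYC+Ex3 livers 118.3, 109.6, 110.1, 120.0 and 118.2. All 5 MYC+Ex3 livers lay below all 10 livers without MYC. The mean fell from 143.6 ± 10.7 to 115.3 ± 4.97 RPKM, a change of -0.31 ± 0.0699 (SE) from wild type (adjusted p = 0.0025 by limma) and of -0.34 from Ex3 livers (adjusted p = 0.00157). Both calls were kept in each of the 10 fits that left out 1 liver. The fall from wild type missed the threshold among keratin-bearing libraries (-0.27, adjusted p = 0.0775), and the fall from Ex3 livers among keratin-free ones (-0.33, adjusted p = 0.0564).

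The MYC livers lay between, at 129.8, 141.5, 126.7, 123.4 and 138.1 RPKM of Pcx, and their change from wild type was -0.12 (adjusted p = 0.232). Every MYC+Ex3 liver was below every MYC liver, yet the change of -0.19 had an adjusted p of 0.9999 beside an unadjusted p of 0.0123. Pcx was the only 1 of the 10 genes with an unadjusted p under 0.05 in that comparison. None of the 10 was called there by limma, beside 0.19% of all genes, and none in the authors' deposited table. The interaction of MYC and Ex3 was called for none of the 10 and for 0% of all genes, with 1 member (Pcx) and 132 genes in all at an unadjusted p under 0.05.

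The transporters and the glucagon arm showed no called change on day 4. Slc2a2 ranged from 96.19 to 184.5 RPKM in wild-type livers and from 93.13 to 133.0 in MYC+Ex3 livers, a change of -0.21 with a 95% interval from -0.55 to 0.12. Slc37a4 ranged from 102.0 to 142.6 RPKM in wild type and from 83.08 to 119.7 in MYC+Ex3 livers, a change of -0.19 with an interval from -0.47 to 0.09. The glucagon receptor Gcgr held 68.21 to 111.0 RPKM in wild type and 66.31 to 79.77 in MYC+Ex3 livers, a change of -0.18. Gcgr was called lower with the keratin state as a covariate, by -0.37 in MYC against wild type (adjusted p = 0.0125) and by -0.30 in MYC+Ex3 against Ex3 (adjusted p = 0.0324).

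Ppargc1a was the least abundant of the 10, at rank 9163 by mean RPKM in the day 4 arm, where Fbp1 had rank 141 and Pck1 rank 152. Its wild-type livers held 3.461, 14.24, 7.867, 3.388 and 4.428 RPKM, a 4.2-fold range within 1 group. The MYC livers held 2.695 to 6.345 RPKM and the MYC+Ex3 livers 3.745 to 10.29, inside that range except for 1 MYC liver. The interval of the MYC change ran from -1.03 to 0.40.

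The glycogen genes showed small or variable differences. Pygl held 139.4 to 157.1 RPKM in wild-type livers and 99.08 to 143.7 in MYC livers, a change of -0.26 ± 0.0997 that missed the threshold (adjusted p = 0.0657). It was called without MYC liver 2 (-0.31, adjusted p = 0.0353) or MYC liver 3 (-0.30, adjusted p = 0.0448). In MYC+Ex3 livers it held 114.0 to 151.4 RPKM, a change of -0.24 (adjusted p = 0.0819), called without MYC+Ex3 liver 3 (-0.31, adjusted p = 0.0255). Gys2 held 55.59, 110.1, 78.23, 66.26 and 52.75 RPKM in wild-type livers and 49.69, 72.36, 45.59, 29.5 and 77.76 in MYC livers. The groups overlapped over most of their range, and the change of -0.42 ± 0.257 was not called (adjusted p = 0.256).

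Some of this spread was shared by the genes of a library. MYC liver 4 was the lowest of its group in 6 of the 10 genes (Pck1, G6pc, Fbp1, Pcx, Gys2 and Gcgr), and MYC+Ex3 liver 2 in 7. Wild-type liver 2 was the highest of its group in 7, and Ex3 liver 5 in 7. No share over all genes was counted for these ranks. MYC+Ex3 liver 2 was the deepest day 4 library, at 7.31 M reads in genes, while wild-type liver 2 and Ex3 liver 5 held 4.45 and 4.22 M. MYC liver 4, low in most of the set, held 4.54 M. The part of depth in this spread was not tested. The summed RPKM of 10 mature hepatocyte markers ran from 1952 to 2367 in wild-type livers, from 1657 to 2273 in MYC livers and from 1455 to 2446 in MYC+Ex3 livers. Of these markers 2 were called lower in MYC and 0 in MYC+Ex3 livers against wild type. In such bulk samples fewer cells of a type and less RNA per cell cannot be told apart.

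**Figure D2:**
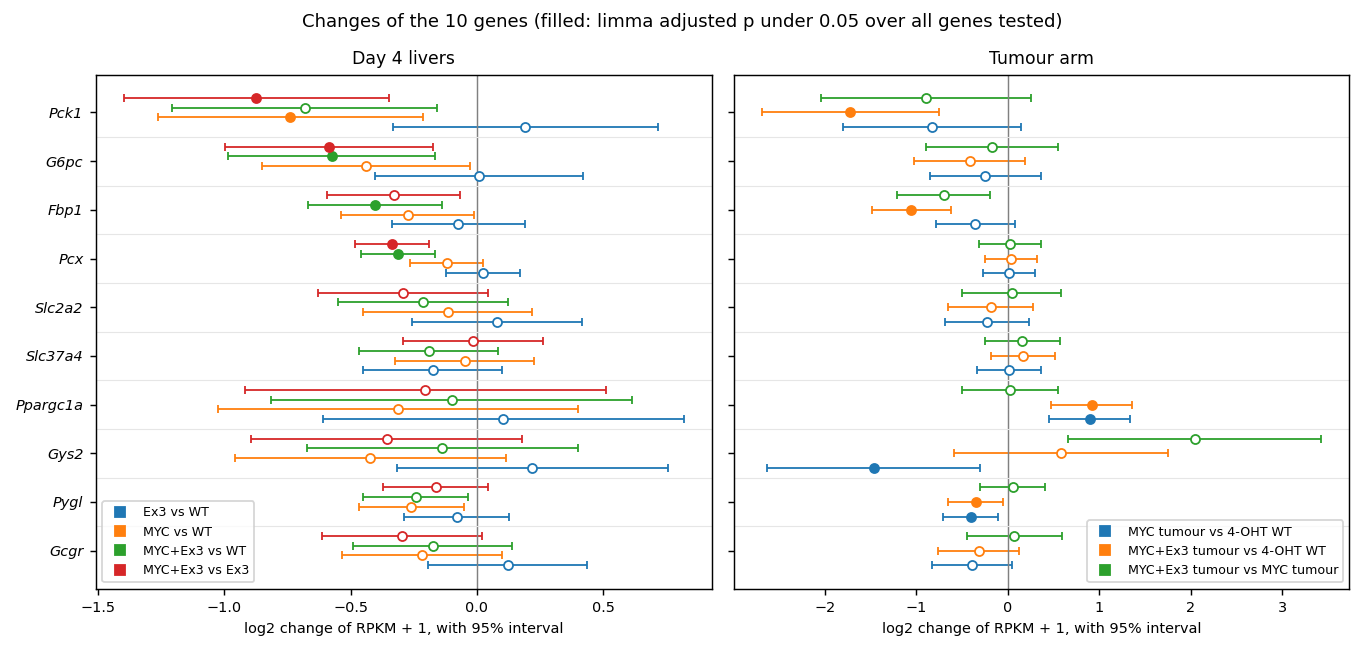
Change of each gene (x axis, log2 of RPKM + 1, with its 95% interval) in 4 day 4 comparisons and 3 tumour comparisons, filled where the limma adjusted p was under 0.05. Filled points left of 0 on day 4 belong to Pck1, G6pc, Fbp1 and Pcx, and the only filled points right of 0 are those of Ppargc1a in both kinds of tumour (0.89 and 0.92).

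The tumour arm asked what remained of these genes in nodules. Pck1 lay below all 7 reference livers in each of the 6 tumours, and Ppargc1a lay above all of them in 5. Gys2 lay below the reference mean in the 3 MYC tumours and above it in the 3 MYC+Ex3 tumours. Between MYC tumours and 4-OHT livers 2 of the 10 genes fell (Gys2 and Pygl) and 1 rose (Ppargc1a), beside 13.7% of all genes called lower and 36.2% called higher. Between MYC+Ex3 tumours and 4-OHT livers 3 fell (Pck1, Fbp1 and Pygl) and 1 rose (Ppargc1a), beside 18.4% lower and 42.3% higher. The median change of the 10 was -0.30 and -0.25, against 0.19 and 0.23 over all genes tested. Over the 10 mature hepatocyte markers it was -0.23 and -0.24. Both comparisons share the 7 4-OHT livers. Rescaling each library to its median ratio brought the median of all genes to 0.01 and 0.04 and the calls to 3195 higher of 5983 and 3996 higher of 7238.

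**Figure D3:**
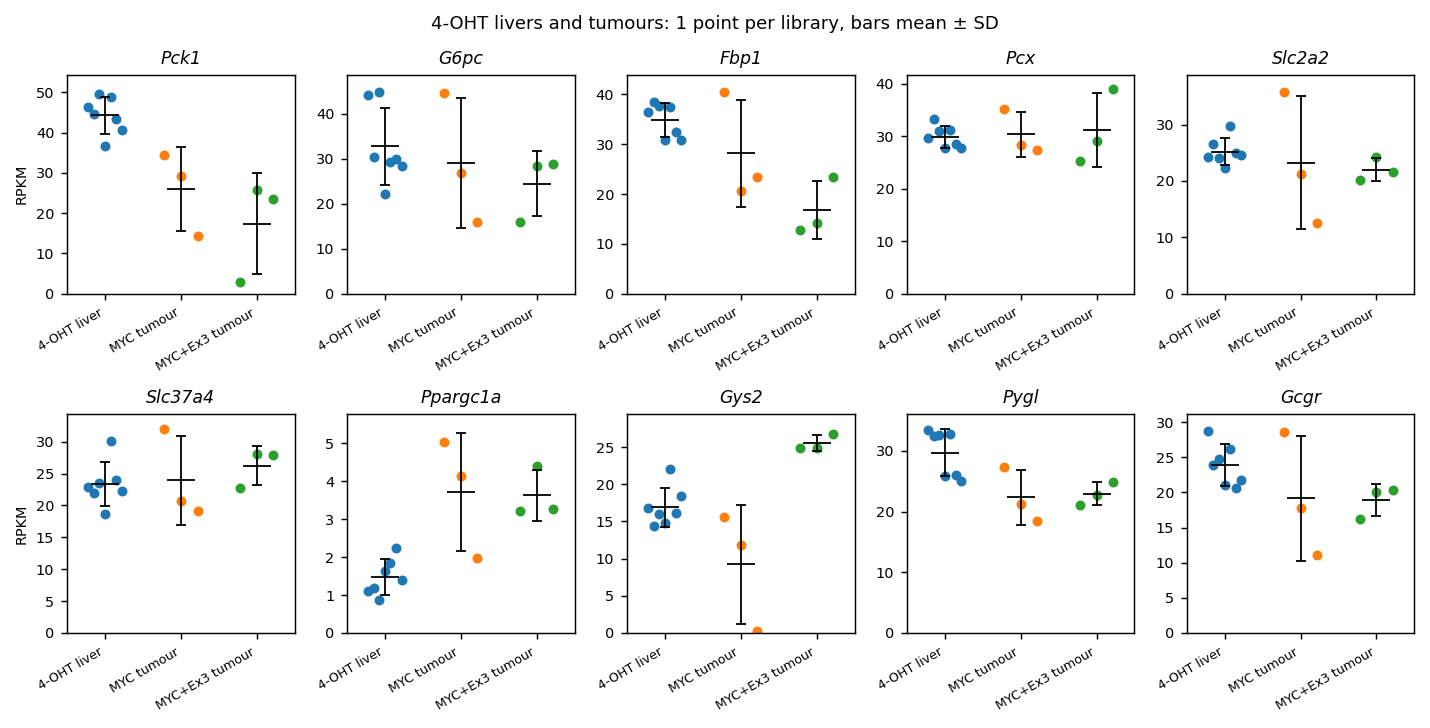
RPKM of the 10 genes (y axis, from 0) in 7 4-OHT livers, 3 MYC tumours and 3 MYC+Ex3 tumours (x axis), 1 point per library, with mean ± SD. All 6 tumours lie below the lowest 4-OHT liver (36.64 RPKM) for Pck1, and the 3 MYC+Ex3 tumours lie above the highest 4-OHT liver (22.02 RPKM) for Gys2.

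Pck1 held 36.64 to 49.52 RPKM in the 4-OHT livers (median 44.66, n = 7). The MYC tumours held 34.47, 29.16 and 14.29 RPKM and the MYC+Ex3 tumours 2.887, 25.74 and 23.63. No tumour reached the lowest 4-OHT liver. The MYC+Ex3 tumour at 2.887 RPKM rested on 355 reads and stood at 6.51% of the 4-OHT mean of 44.31 ± 4.55 RPKM, while the other 5 tumours stood at 32.3% to 77.8%. The change in MYC+Ex3 tumours was -1.72 ± 0.452 (SE), adjusted p = 0.00446 by limma, and it was called in each fit that left out 1 library. Without the tumour at 2.887 RPKM it was -0.81 (adjusted p = 0.0113). In MYC tumours the change was -0.83 ± 0.452 and was not called (adjusted p = 0.141). A fit of the MYC tumours and 4-OHT livers alone, whose spread does not include that tumour, called it (adjusted p = 0.00837), as did the authors' deposited table (-0.94, adjusted p = 0.000265).

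Fbp1 held 30.8 to 38.58 RPKM in the 4-OHT livers (median 36.55) and 12.73, 14.18 and 23.46 in the MYC+Ex3 tumours, all below that range. The mean fell from 34.91 ± 3.42 RPKM (n = 7) to 16.79 ± 5.82 (n = 3), a change of -1.06 ± 0.201 (SE), adjusted p = 0.000443 by limma. This was called in all 8 alternatives and all 10 fits without 1 library. The MYC tumours held 40.43, 20.63 and 23.49 RPKM, 1 above the 4-OHT range and 2 below it, and the change of -0.35 was not called (adjusted p = 0.159). Without the MYC tumour at 40.43 RPKM it was -0.64 (adjusted p = 0.00922). Between the 2 kinds of tumour the Fbp1 change of -0.70 was not called (adjusted p = 0.129).

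The other 2 enzymes did not pass the test in tumours. G6pc held 22.12 to 44.89 RPKM in the 4-OHT livers (median 29.93), 44.59, 26.81 and 15.82 in MYC tumours and 16.04, 28.38 and 28.75 in MYC+Ex3 tumours. In each tumour genotype 1 sample lay below the 4-OHT range, and the intervals of the changes ran from -0.85 to 0.36 and from -1.03 to 0.19. Pcx held 27.73 to 33.25 RPKM in the 4-OHT livers, 35.25, 28.38 and 27.43 in MYC tumours and 25.26, 29.11 and 38.99 in MYC+Ex3 tumours, with changes of 0.02 and 0.04. The authors' deposited table has G6pc lower in MYC+Ex3 tumours (-0.63, adjusted p = 0.00477).

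Slc2a2 and Slc37a4 were not called in either kind of tumour. Slc2a2 held 22.36 to 29.74 RPKM in the 4-OHT livers (median 24.59), 35.8, 21.31 and 12.46 in MYC tumours and 20.17, 24.26 and 21.5 in MYC+Ex3 tumours. Without the MYC tumour at 35.8 RPKM its change in MYC tumours went from -0.23 (adjusted p = 0.391) to -0.59 (adjusted p = 0.00757). Slc37a4 held 18.66 to 30.04 RPKM in the 4-OHT livers and 19.08 to 31.97 in the 6 tumours, almost the same range. The glucagon receptor Gcgr held 20.67 to 28.79 RPKM in the 4-OHT livers, 28.67, 17.72 and 11.11 in MYC tumours and 16.29, 20.01 and 20.41 in MYC+Ex3 tumours. All 3 MYC+Ex3 tumours lay below the 4-OHT livers, and the change of -0.32 ± 0.206 was not called (adjusted p = 0.191). It was called after rescaling (-0.54, adjusted p = 0.0329) and in a fit of the 2 groups alone (adjusted p = 0.0333), and in MYC tumours (main change -0.39, adjusted p = 0.129) after rescaling (-0.60, adjusted p = 0.0239) and without MYC tumour 1 (-0.72, adjusted p = 0.00286).

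Ppargc1a moved the other way. The 4-OHT livers held 0.8632 to 2.246 RPKM (median 1.406, 168 to 517 reads), the MYC tumours 5.034, 4.131 and 1.985, and the MYC+Ex3 tumours 3.228, 4.397 and 3.261. Of the 6 tumours 5 lay above every 4-OHT liver, and the sixth, MYC tumour 3, lay inside their range. The mean rose from 1.472 ± 0.476 RPKM to 3.717 ± 1.57 and 3.629 ± 0.666, 2.52 and 2.47 times as high. The changes were 0.89 ± 0.207 (SE), adjusted p = 0.00279, and 0.92 ± 0.207, adjusted p = 0.00155, by limma. Neither was lost without any 1 library. Against the 3 4-OHT livers whose titles begin with S15, 1 of 2 title prefixes, the rise in MYC tumours was 0.68 (adjusted p = 0.0547).

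Gys2 held 14.33 to 22.02 RPKM in the 4-OHT livers (median 16.19). The MYC tumours held 15.54, 11.89 and 0.2446 RPKM, the last on 24 reads and at 1.45% of the 4-OHT mean. The MYC+Ex3 tumours held 24.84, 24.92 and 26.74 RPKM, all above the 4-OHT livers and above the MYC tumours. The fall in MYC tumours, -1.47 ± 0.546 (SE), adjusted p = 0.0371 by limma, rested on the third MYC tumour, without which it was -0.28 (adjusted p = 0.166). It was lost also without 4-OHT liver 1, 3, 5, 6 or 7 (adjusted p from 0.0501 to 0.0585), and the authors' deposited table does not call it (adjusted p = 0.297).

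In MYC+Ex3 tumours Gys2 averaged 25.5 ± 1.07 RPKM against 16.92 ± 2.61 in 4-OHT livers, and the change of 0.58 ± 0.546 was not called in the fit of all 13 libraries (adjusted p = 0.375), whose spread includes MYC tumour 3. A fit of those 2 groups alone called it (adjusted p = 0.00108), as did the authors' deposited table (0.37, adjusted p = 0.00893). After rescaling, the 3 tumours stood at 124.2% to 131.2% of the 4-OHT mean. The difference between the tumour genotypes was 2.04 ± 0.646 (adjusted p = 0.0989), not called. It was called without MYC tumour 1 (2.73, adjusted p = 0.016), MYC tumour 2 (2.55, adjusted p = 0.0386) or MYC tumour 3 (0.86, adjusted p = 0.0112).

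Pygl held 24.97 to 33.51 RPKM in the 4-OHT livers (median 32.38), 27.34, 21.21 and 18.4 in MYC tumours and 21.14, 22.75 and 24.94 in MYC+Ex3 tumours. The MYC+Ex3 tumours all lay below the 4-OHT livers, the nearest at 24.94 against 24.97 RPKM. The changes were -0.41 ± 0.14 (SE), adjusted p = 0.0267, and -0.35 ± 0.14, adjusted p = 0.0419, by limma. Against the S15 4-OHT livers alone neither was called (adjusted p = 0.185 and 0.24). The first was lost without MYC tumour 2 or 3 (adjusted p = 0.0766 and 0.167), and the second without 4-OHT liver 1, 2, 3 or 5 or any 1 of the 3 tumours (adjusted p from 0.0549 to 0.145).

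**Figure D4:**
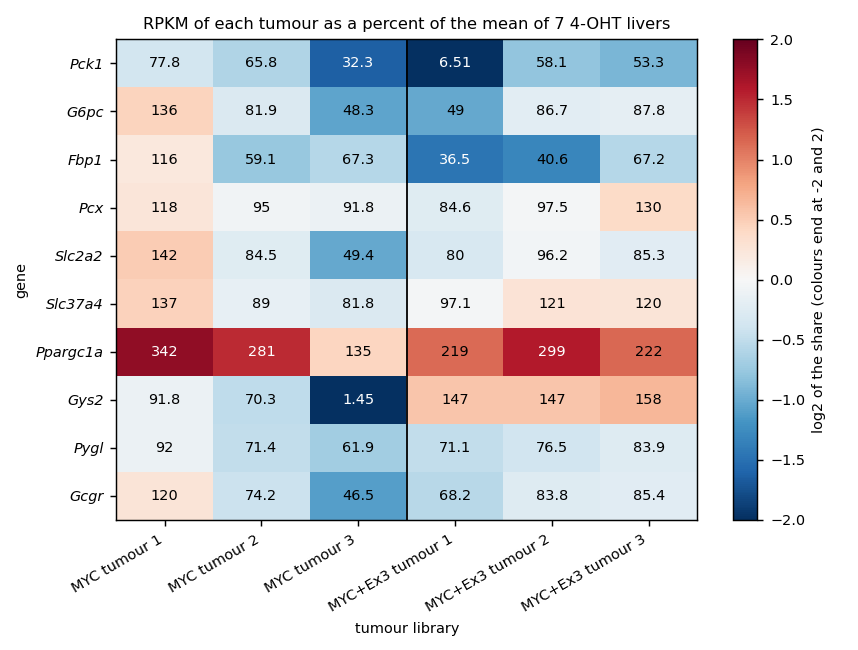
RPKM of each gene (rows) in each of the 6 tumours (columns) as a percent of the mean of the 7 4-OHT livers, with colour for the log2 of that share. Pck1 runs from 6.51% to 77.8%, Ppargc1a from 135% to 342%, and Gys2 from 1.45% in MYC tumour 3 to 158% in MYC+Ex3 tumour 3.

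The tumours differed among themselves across the set. MYC tumour 1 had the highest level of its group in 10 of 10 genes and MYC tumour 3 the lowest in 9 of 10, and MYC+Ex3 tumour 1 had the lowest in 10 of 10. By RPKM without rescaling, MYC tumour 3 lay below all 7 4-OHT livers in 8 genes and above them in 0. MYC tumour 1 lay below in 1 (Pck1) and above in 5. The share of all genes outside the 4-OHT range was not counted. MYC tumour 1 was the shallowest tumour library, at 6.67 M reads in genes, and MYC tumour 3 the deepest, at 9.82 M. In MYC tumour 1 Fbp1 and Pcx, above the 4-OHT livers by RPKM, had 1384 and 3597 reads, against at least 1527 and 3779 in those livers. Median-ratio rescaling divided the 6 tumours by 1.056 to 1.197 and the 4-OHT livers by 0.879 to 1.054. After it, MYC tumour 1 stood at 101.4% (Fbp1) and 103.1% (Pcx) of the 4-OHT mean, from 115.8% and 118.0%. Slc2a2, Slc37a4 and Ppargc1a, the others above, stood at 124.0%, 119.8% and 295.2%. The part of depth was not tested. The summed hepatocyte markers were likewise highest in MYC tumour 1 and lowest in MYC tumour 3, at 457.4, 293.1 and 255.0 RPKM in MYC tumours 1 to 3. They stood at 264.5, 349.2 and 334.1 in MYC+Ex3 tumours, against 320.2 to 444.8 in 4-OHT livers. Of the 10 hepatocyte markers 1 was called lower in MYC and 5 in MYC+Ex3 tumours, and none stood at 0. Markers of 7 macrophage genes summed to 26.6 to 109.0 and 47.9 to 59.1 RPKM in the 2 kinds of tumour against 104.0 to 139.9, with 6 and 5 called lower. Of 6 endothelial markers 4 were called lower in each, and 3 of 3 erythroid markers were called higher in MYC+Ex3 tumours. The part of cell makeup in the changes above was not tested.

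None of the 10 genes was called between the 2 kinds of tumour by limma, beside 4.13% of all genes, and Fbp1 and Gys2 had an unadjusted p under 0.05. The authors' deposited table has none there either. It calls 4 members in MYC tumours (Pck1, Fbp1 and Pygl lower, Ppargc1a higher) and 8 in MYC+Ex3 tumours (Pck1, G6pc, Fbp1, Slc2a2, Pygl and Gcgr lower, Ppargc1a and Gys2 higher). The share of all genes that the authors' table calls was not counted, so these 2 counts have no background beside them.

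Whether a change in tumours differed from the change on day 4 was tested directly over all 33 libraries. For MYC none of the 10 genes was called, beside 2.43% of all genes, with 1 (Ppargc1a) at an unadjusted p under 0.05. For MYC+Ex3 none was called, beside 11% of all genes, with 3 (Fbp1, Pcx and Ppargc1a) at an unadjusted p under 0.05. The Ppargc1a change was higher in tumours by 1.21 ± 0.447 (adjusted p = 0.162) and 1.02 ± 0.447 (adjusted p = 0.149). The Fbp1 change in MYC+Ex3 tumours was lower by 0.65 than on day 4, an estimate of -0.65 ± 0.232 (adjusted p = 0.0667), called without MYC+Ex3 liver 2 (-0.76, adjusted p = 0.0311) or MYC+Ex3 tumour 3 (-0.91, adjusted p = 0.0144). The Pcx change was a fall on day 4 (-0.31) and near 0 in MYC+Ex3 tumours without rescaling (0.04). The authors' deposited table has -0.39 and -0.17 for these. By limma the 2 Pcx changes differed by 0.35 ± 0.133 (adjusted p = 0.087), called without MYC+Ex3 tumour 1 (0.48, adjusted p = 0.0203).

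Genes around these 10 were read from 5 lists. Their counts stand beside the shares over all genes given above, which were 16.9% and 17.9% higher and 5.36% and 6.18% lower in MYC and MYC+Ex3 livers against wild type, and 36.2% and 42.3% higher and 13.7% and 18.4% lower in MYC and MYC+Ex3 tumours. Of 20 further gluconeogenic and shared enzymes 3 rose and 1 fell in MYC livers, 5 rose and 1 fell in MYC+Ex3 livers, and 6 of 19 rose and 1 fell in each kind of tumour. Median changes were 0.06, 0.07, 0.11 and 0.26 against 0.07, 0.05, 0.19 and 0.23 over all genes. As shares, 15% and 25.0% of the list rose on day 4 and 31.6% in each kind of tumour, and 5.0% to 5.26% fell. Mdh2, the mitochondrial malate dehydrogenase, rose by 0.47 in MYC and 0.56 in MYC+Ex3 livers and in both tumour genotypes by 0.59 and 0.66. The mitochondrial isoform of the Pck1 enzyme, Pck2, rose from 1.26 ± 0.165 RPKM in 4-OHT livers to 3.80 ± 1.24 in MYC and 4.30 ± 0.676 in MYC+Ex3 tumours (1.06 and 1.23, adjusted p = 5.03e-05 and 6.35e-06), where Pck1 stood lower. On day 4 Pck2 rose by 0.60 in MYC+Ex3 livers (adjusted p = 0.0102). Eno1, an enolase shared with glycolysis, rose by 0.65 in MYC and 0.74 in MYC+Ex3 livers, the first lost among keratin-free libraries. In MYC and MYC+Ex3 tumours Eno1 rose by 0.50 and 0.74. Aqp9, a glycerol channel, fell by 0.57 in MYC livers and 1.33 in MYC tumours, the second resting on MYC tumour 3 (-0.45 without it, adjusted p = 0.129). Got1, the cytosolic aspartate aminotransferase, fell by 0.75 in MYC+Ex3 livers and by 0.63 in MYC+Ex3 tumours, where it was not called without tumour 1 (-0.26). Slc16a1, a lactate carrier, rose by 0.545 in MYC and by 0.93 in MYC+Ex3 tumours. Of the day 4 calls, that of Got1 held in 3 of 10 fits without 1 library, of Eno1 in MYC livers in 5 and of Aqp9 in 8.

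Of 20 glycogen genes 1 rose and 1 fell in MYC livers and 1 rose and 3 fell in MYC+Ex3 livers (5.0% higher in each, 5.0% and 15% lower), with medians of -0.07 and -0.09. In tumours 6 of 18 (33.3%) rose and 2 (11.1%) fell in MYC, and 10 (55.6%) rose and 1 (5.56%) fell in MYC+Ex3, with medians of 0.21 and 0.41 against 0.19 and 0.23 over all genes. Glycogenin (Gyg), which primes the glycogen chain, rose from 6.68 RPKM in wild-type to 17.3 in MYC and 14.7 in MYC+Ex3 livers (1.22 and 1.03), and by 1.38 and 1.52 in the 2 kinds of tumour. Ppp1r3b, a subunit that targets protein phosphatase to glycogen in liver, fell from 139.0 to 73.2 and 68.6 RPKM on day 4 (-1.06 and -0.96, neither called among keratin-free libraries). In tumours it fell from 26.0 RPKM to 9.59 in MYC and 7.65 in MYC+Ex3, by 1.36 and 1.67, in every alternative tried. The brain phosphorylase Pygb rose from 2.77 to 13.9 and 11.2 RPKM (1.98 and 1.69, adjusted p = 4.46e-08 and 7.46e-08), beside the lower Pygl. Its changes exceeded those on day 4 by 1.55 (MYC) and 1.24 (MYC+Ex3), both called. Ppp1r3c, another targeting subunit, fell by 1.12 in MYC tumours, and the branching enzyme Gbe1 was called in none. The day 4 falls of Ppp1r3b held in 7 (MYC) and 4 (MYC+Ex3) of 10 fits without 1 library, and the fall of Ppp1r3c in MYC tumours in 9.

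Among 11 genes of glucose use 2 rose in MYC livers, 3 rose and 2 fell in MYC+Ex3 livers, 2 rose and 2 fell in MYC tumours, and 8 rose and 1 fell in MYC+Ex3 tumours. As shares, 18.2%, 27.3%, 18.2% and 72.7% rose in these 4 comparisons and 0%, 18.2%, 18.2% and 9.09% fell. The medians were 0.11, 0.05, 0.48 and 0.94. Pfkl, the liver phosphofructokinase subunit, rose by 1.04 and 1.36 in the 2 kinds of tumour. G6pc3, the widely expressed relative of G6pc, rose from 4.45 to 9.88 and 12.2 RPKM in MYC and MYC+Ex3 livers (1.03 and 1.31), where G6pc stood lower. In MYC and MYC+Ex3 tumours G6pc3 rose by 1.075 and 0.94. Pklr, the liver pyruvate kinase, fell by 0.47 in MYC+Ex3 livers and by 0.72 in MYC tumours, and Gckr fell by 0.56 in MYC+Ex3 tumours. Gckr was called lower also in MYC+Ex3 livers (-0.43) and in MYC tumours (-0.33). The Pklr calls held in 7 and 8 of 10 fits without 1 library and those of Pfkl in all 10.

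Of 16 transcriptional regulators 1 rose and 1 fell in MYC livers, 1 rose and 3 fell in MYC+Ex3 livers, 0 rose and 1 fell in MYC tumours, and 1 rose and 3 fell in MYC+Ex3 tumours. As shares, 6.25%, 6.25%, 0% and 6.25% rose and 6.25%, 18.8%, 6.25% and 18.8% fell, with medians of -0.14, -0.19, -0.05 and 0.06. The glucocorticoid receptor Nr3c1 fell by 0.46 and 0.52 in MYC and MYC+Ex3 livers, Cebpa fell by 0.35 in MYC+Ex3 livers and by 0.59 in MYC+Ex3 tumours, and Hnf4a fell by 0.29 in MYC+Ex3 livers. Foxa2 fell by 0.39 in MYC tumours and Klf15 by 0.59 in MYC+Ex3 against Ex3 livers, while Foxo1 was called in none. Foxa2 and Nr3c1 were called lower also in MYC+Ex3 tumours (-0.37 and -0.30). In 10 fits without 1 library the calls of Hnf4a held in 3, Klf15 in 1, Foxa2 in 6 (MYC tumours) and Cebpa in 6 (livers) and 9 (tumours). Both calls of Nr3c1 in livers held in 10. Of 15 hormone signalling genes 3 fell in MYC livers, 1 fell in MYC+Ex3 livers, 1 rose and 4 fell in MYC tumours, and 3 rose and 3 fell in MYC+Ex3 tumours. As shares, 0%, 0%, 6.67% and 20.0% rose and 20.0%, 6.67%, 26.7% and 20.0% fell, with medians of -0.29, -0.13, -0.01 and 0.14. The adrenergic receptor Adra1b, which couples to glycogen breakdown, fell from 27.6 to 13.8 RPKM in MYC livers (-1.05) and from 8.30 to 2.68 and 0.899 RPKM in the 2 kinds of tumour (-1.32 and -2.29). Its difference between the tumour genotypes, -0.98, was called (adjusted p = 0.0182), and held in 4 of 6 fits without 1 library. It was lost in a fit of the 2 groups alone and without MYC+Ex3 tumour 3 (-0.81, adjusted p = 0.105). The insulin receptor Insr fell in MYC and MYC+Ex3 livers against wild type (-0.64 and -0.65) and in MYC and MYC+Ex3 tumours (-0.40 and -0.37). Irs2, an insulin receptor substrate, fell by 1.24 in MYC+Ex3 against Ex3 livers and rose by 1.44 in MYC+Ex3 tumours. It was called lower also in MYC against wild-type livers (-0.70). Igfbp1, which insulin represses, rose by 1.23 in MYC+Ex3 tumours (adjusted p = 0.0394), a call lost after rescaling and in 5 of 10 fits without 1 library.

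**Figure D5:**
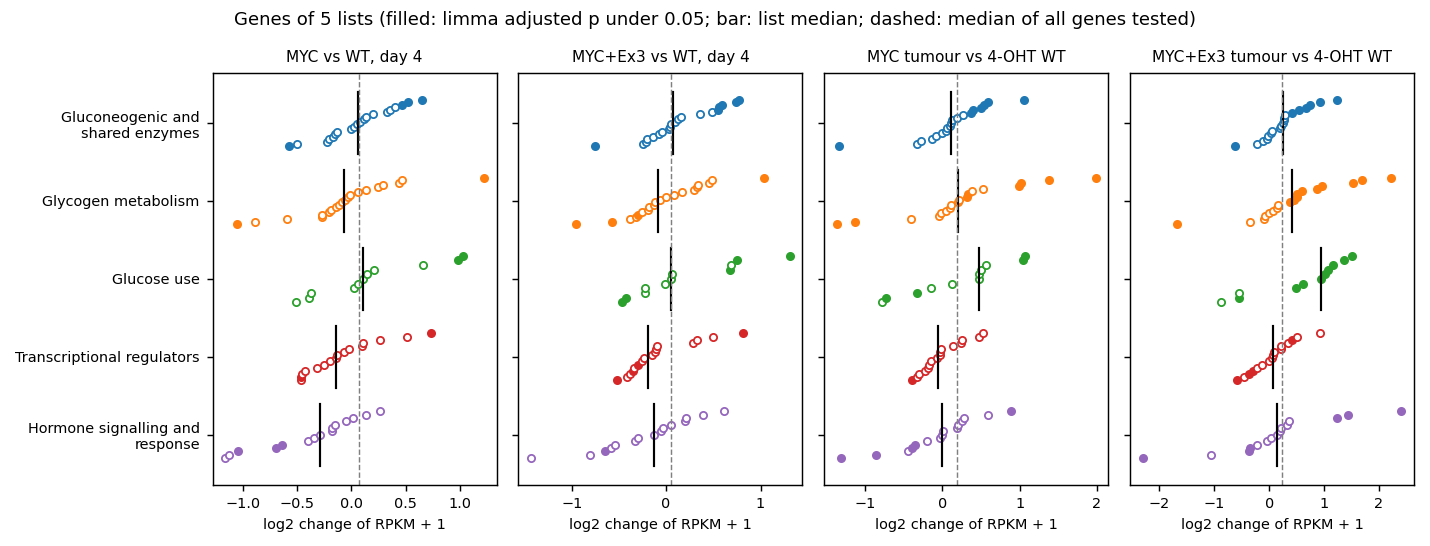
Change of every tested gene of the 5 lists (x axis, log2 of RPKM + 1) in 4 comparisons, filled where the limma adjusted p was under 0.05, with a bar at the list median and a dashed line at the median of all genes tested. In MYC+Ex3 tumours the genes of glucose use have their median at 0.94 and the glycogen genes at 0.41, against 0.23 for all genes.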

How the data were processed

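Total RNA of 33 samples was made into TruSeq stranded libraries and sequenced on Illumina instruments, per the labels' protocols. The submitters' processing notes name mm9, TopHat2 2.0.8, SAMtools, featureCounts 1.4.5-p1 and DESeq2, without saying how each was used. The authors deposited 1 table of RPKM with 21671 genes, together with a log2 fold change and an adjusted p-value for each of their own comparisons. Whole reads were recovered from the RPKM steps in 100% of the 20485 genes above 0 (tolerance 0.01 read) and used only for depth. No column belonged to another series (0 columns).

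Sample groups came from the titles and genotype labels, and replicate numbers follow the record order and pair nothing. limma 3.58.1 in R 4.3.3 was run on log2(RPKM + 1), with a trended empirical Bayes spread, two-sided tests and p-values adjusted by Benjamini-Hochberg in each of 11 comparisons. A gene was tested when it reached an RPKM of 1 in 3 libraries of the fit. The 20 day 4 libraries were fitted together, the 13 of the tumour arm together, and all 33 for the differences between arms. On this scale the changes of weakly expressed genes come out too small. The script was tested on simulated data. Named genes beyond the 10 were a panel of 13 and, in each comparison and list, the called gene with the largest rise and the largest fall at a mean RPKM of at least 5. Some genes of the panel are not reported here. The members, lists and panel were chosen with earlier results of these data known. Alternatives were a pseudocount of 0.1, no filter, a filter at an RPKM of 5, median-ratio rescaling, a sex or keratin covariate, subsets of libraries, and leaving out each library. Promoters were read from RefSeq on GRCm38.p6, another build than that of the reads, and Gys2 was not matched.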

Additional observations from a re-analysis of the deposited data

Results flagged for a closer look

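Among the day 4 and 4-OHT groups 1 value stood apart within its group. Slc2a2 held 101.5 RPKM in MYC liver 1 of the day 4 arm, the lowest of the 5 MYC livers, while the other 4 held 119.5 to 125.0. Its gap to the next liver was 0.768 of the range of the group. Of 50 such checks of members within groups this was the only 1, and chance alone marks about 1 in 20 (0.05 of them). The tumour groups, with 3 libraries each, were not among these checks. Values such as Gys2 at 0.2446 RPKM in MYC tumour 3 and Pck1 at 2.887 in MYC+Ex3 tumour 1 were thus not checked. The Slc2a2 change from wild type was not called with or without that liver.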

How the results depend on the processing

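The number of the 10 genes called moved by over 1.5 times under these settings. For MYC against wild-type livers it was 1, and became 0 with no filter, 2 after rescaling, 0 in a fit of the 2 groups alone, 2 with the keratin covariate, 0 in keratin-free libraries, and 0 to 2 without 1 library. For MYC+Ex3 against wild type it was 3, and became 1 with the sex covariate, 1 in keratin-bearing libraries and 1 to 4 without 1 library. For MYC+Ex3 against Ex3 it was 3, and became 5 with the keratin covariate and 1 to 4 without 1 library. For MYC tumours it was 3, and became 5 after rescaling, 0 against S15 4-OHT livers and 1 to 6 without 1 library. Between the tumour genotypes it was 0, and 0 to 1 without 1 library. For the difference between arms it was 0, and became 1 with the sex covariate for MYC, and 1 with a pseudocount of 0.1, 1 after rescaling, 1 with the sex covariate and 0 to 1 without 1 library for MYC+Ex3. The cause was not tested. For MYC+Ex3 tumours the count of 4 stayed within 1.5 times, at 3 to 4 without 1 library. Over 110 changes of single members, of which 14 were called, 2081 of 2187 alternative values kept their side of the threshold, 67 lost a call and 39 gained one, and 0 called values changed sign. Of 124 called changes of genes in the lists and panel, 48 were called in every alternative and left-out fit. Keratin-bearing libraries alone could not be fitted for comparisons with MYC livers, which have 1 such library. No paired analysis was possible because replicate numbers follow record order and pair no animals.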
